A study of Homo sapiens with 21 samples.

Results

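The lysyl oxidases (*LOX*, *LOXL1*, *LOXL2*, *LOXL3* and *LOXL4*), the lysyl hydroxylases (*PLOD1*, *PLOD2* and *PLOD3*) and 2 alpha subunits of the collagen prolyl 4-hydroxylase (*P4HA2* and *P4HA3*) were followed in HMLE cells during treatment with TGFβ. The members were chosen by gene symbol, and all 10 were among the 23201 symbols of the table. HMLE is an immortalized epithelial cell line made from human breast tissue, and TGFβ is a cytokine that induces epithelial-to-mesenchymal transition (EMT). Untreated cells (d0) and cells on days 1, 4, 7, 10, 15 and 20 of treatment (d1 to d20) were seeded at one density, total RNA was extracted, and each timepoint had 3 libraries, 21 in all. The study calls these biological triplicates of 1 line, every treated day is compared with the same 3 untreated libraries, and no untreated cells of a later day were analysed here. The p-values therefore measure the spread between these libraries. The dose of TGFβ is not given in the sources used here.

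Collagen is modified before and after it leaves the cell. In the endoplasmic reticulum, prolyl 4-hydroxylases hydroxylate proline, which stabilizes the triple helix, and lysyl hydroxylases hydroxylate lysine, which sets the kind of cross-link that can form later. Outside the cell, lysyl oxidases are copper enzymes that oxidize lysine and hydroxylysine in collagen and elastin to the aldehydes from which cross-links form. The hydroxylases need iron, oxygen, 2-oxoglutarate and ascorbate, and several genes of these families are known targets of TGFβ and of hypoxia.

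The libraries held between 18847917 and 22667754 reads. Values are given as normalized reads (the read number over a factor set for each library), so that 3 reads, taken here as the floor of detection, correspond to between 2.54 and 3.18 normalized reads. Library 3 of d7 stood apart, with a root mean square log2 difference of 0.472 and 0.457 from the other libraries of d7, while all other pairs within a timepoint lay between 0.214 and 0.243. The genes listed for basal epithelial cells were *KRT5*, *KRT14*, *KRT17* and *TP63*, with the more general epithelial markers *EPCAM* and *CDH1*. All of them were read in every library. Against d0, 2, 2, 3, 0, 3 and 1 of these 6 were called higher from d1 to d20, and 2, 3, 1, 5, 3 and 4 lower. The mesenchymal markers *VIM*, *CDH2*, *ZEB1* and *FN1* were called higher than at d0 on each of the 6 treated days, 4 of 4. Of the fibroblast list, *DCN* and *LUM* had at most 1 read in any library and *PDGFRA* at most 8. The other 3 were tested. From d1 to d20, 2, 2, 2, 2, 3 and 3 of them were called higher than at d0 and 1, 0, 0, 1, 0 and 0 lower. Of all genes, between 31.3% and 39.2% were called higher on these days and between 28.5% and 37.3% lower. *THY1* was 1375 at d0 and 6371 at d20 on average. *PDGFRB* was 30.5 at d0, 20.1 at d1, 18.3 at d10 and 92.5 at d20. The summed level of the 6 fibroblast genes went from between 1838 and 1886 at d0 to between 33852 and 35949 at d20, where most of it was *COL1A1*. *PTPRC*, *CD3E* and *CDH5* had at most 1 read in any library, while *CD68*, a lysosomal protein used as a macrophage marker, had between 344 and 840 reads. The part of these markers in the changes given below was not tested. In such bulk samples, fewer cells of a type and less RNA per cell cannot be told apart.

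Of the 10 members, 9 had a mean of at least 10 normalized reads and were tested, and *LOXL4* was not. A member was called at an adjusted p under 0.05 (limma on log2(value + 1), adjusted over 13343 genes). On d1, 9 of 9 exceeded d0 and 0 were lower, where 31.3% of all genes tested were called higher and 28.5% lower. On d4 the members called were 8 upward and 0 downward (36.9% and 35.3% of all genes), and the same numbers held for d7 (34.6% and 32.6%). On d10 they were 9 and 0 (37.0% and 30.7%). On d15 they were 8 and 1, the latter being *LOXL3* (39.2% and 37.3%), and on d20 they were 9 and 0 (32.5% and 30.2%). The collagen-modifying genes thus mostly lay above untreated cells, while all genes were split about evenly between higher and lower. The median log2 change of the 9 was 0.86 (d1), 1.11 (d4), 1.04 (d7), 1.10 (d10), 0.97 (d15) and 1.24 (d20), where the median of all genes lay between 0.00 and 0.03. When the libraries were instead scaled to equal totals, that median of all genes moved to between -0.20 and -0.14, and the share of called genes that were higher fell from between 51.1% and 54.6% to between 26.7% and 39.1%. Members were still mostly called higher at that scaling, with 7 higher and 1 lower on d7 and the same counts as before on the other days.

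Since most genes were called on each treated day, changes of at least 2-fold were counted as well. They were 3 of 9 members at d1, where 6.47% of all genes rose and 3.87% fell by that much. Such changes were found for 5 members on d4 (9.68% and 5.03% of all genes), 5 on d7 (8.79% and 2.93%), 5 on d10 (6.94% and 7.34%), 4 on d15 (11.7% and 8.66%) and 7 on d20 (7.51% and 4.72%), and 0 members fell by at least 2-fold on any day. At equal library totals these counts were 2, 3, 3, 4, 4 and 6 from d1 to d20, and the share of 2-fold changes of all genes that were upward went from between 48.6% and 75% to between 34.8% and 59.2%. *LOX* and *P4HA3* passed this limit on all 6 days. Some members lay close to it: at d1 the log2 change was 1.00 for *LOXL2* and 0.99 for *P4HA2*, and the count there moved between 2 and 4 when single libraries were left out.

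**Figure D1:**
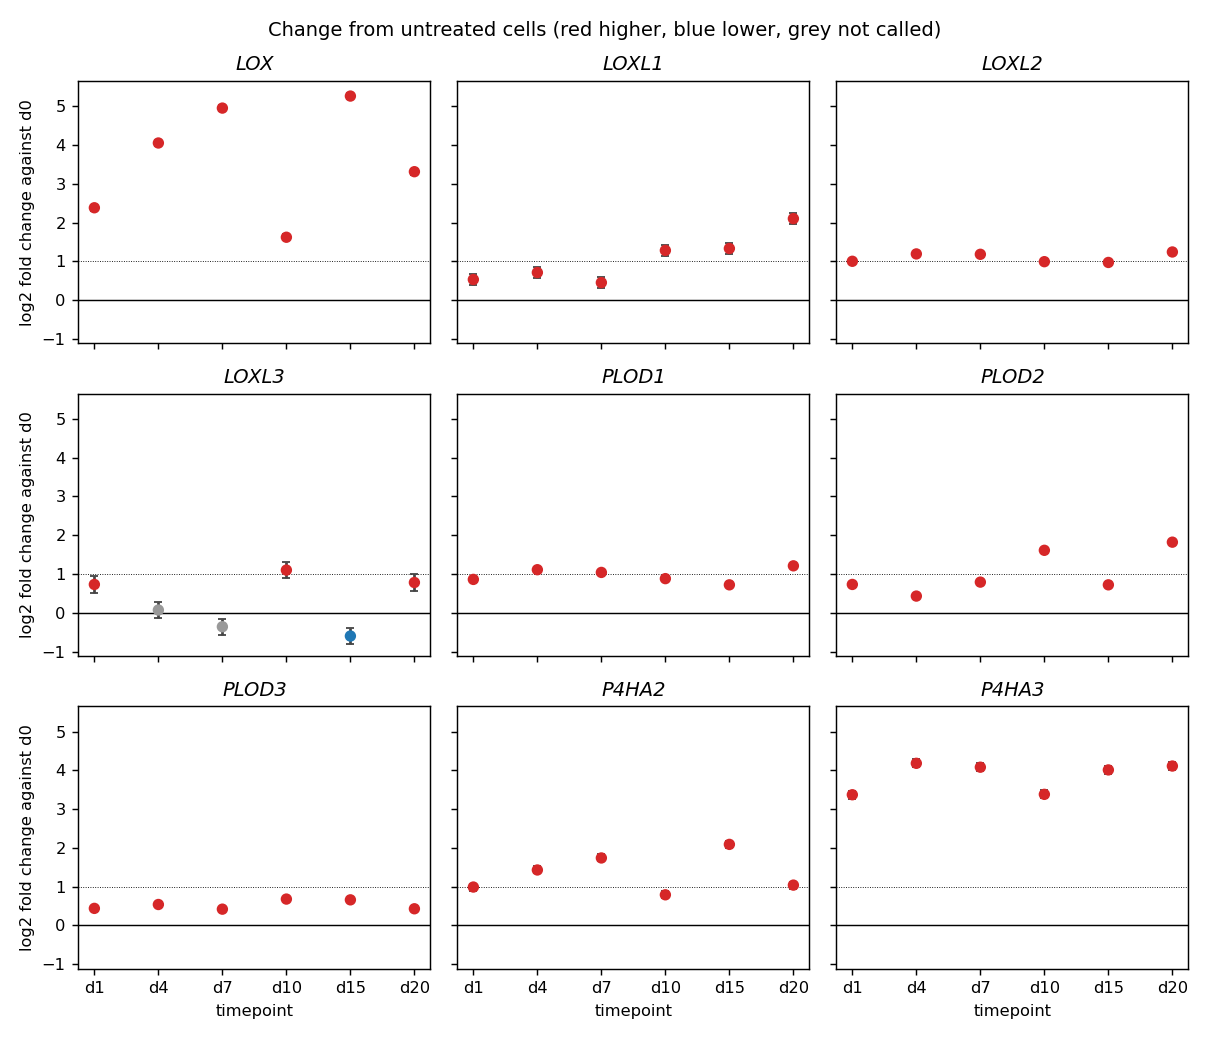
Log2 fold change of each of the 9 members tested against untreated cells (y axis; dotted line at 1, a 2-fold change) for each treated day (x axis, evenly spaced), as limma estimates with bars of 1 standard error, red where called higher, blue where called lower and grey where not called. *LOX* rose, fell at d10 to 1.62 and reached 5.26 at d15, *P4HA3* stayed between 3.37 and 4.18, and *LOXL3* crossed 0.

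*LOX*, the founding lysyl oxidase, reached the largest change of the 9 genes, at d15, and did not keep one direction. Its 3 libraries held 334, 329 and 303 normalized reads at d0, and 1716, 1668 and 1658 at d1. They held 5651, 5246 and 5151 at d4, and 11410, 10363 and 8345 at d7. Every library was thus above every library of the timepoint before, up to d7. At d10 the values were 952, 1072 and 953, at d15 they were 12729, 12142 and 12104, and at d20 they were 3351, 3019 and 3221. The level at d10 was the lowest of the treated days, and the level at d15, 5 days later, was the highest of all. Ordered by level, d15 was followed by d7, d4, d20, d1, d10 and d0, and no neighbours in that order overlapped.

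The log2 change of *LOX* from d0 was 2.38 (d1), 4.05 (d4), 4.95 (d7), 1.62 (d10), 5.26 (d15) and 3.31 (d20), each with a standard error of 0.08 (limma, adjusted p between 9.55e-23 and 7.23e-14). These are 5.22-fold at d1, 38.3-fold at d15 and 9.93-fold at d20 in the means. Between neighbouring timepoints, *LOX* rose by 1.67 from d1 to d4 and by 0.90 from d4 to d7, fell by 3.33 from d7 to d10, which is 10.1-fold, rose by 3.63 to d15, which is 12.4-fold, and fell by 1.95 to d20, which is 3.86-fold (limma, adjusted p between 3.23e-19 and 8.65e-09). Without library 3 of d7, whose *LOX* value was the lowest of d7, the change from d0 to d7 was 5.08 and that from d7 to d10 was -3.45.

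Markers also changed at these steps, in directions that differed between lists. Of the 6 genes listed for basal epithelial cells, 5 were lower and 1 (*EPCAM*) higher at d10 than at d7. From d10 to d15, 5 were higher and 1 (*EPCAM*) lower, and from d15 to d20, 5 were lower and 0 higher. Of the 4 mesenchymal markers, 4, 1 and 3 were higher at these 3 steps and 0 lower. Of 3 fibroblast markers tested, 1, 2 and 2 were higher and 2, 1 and 0 lower. Of 2 immune markers tested, 0, 2 and 0 were higher and 1, 0 and 2 lower. Of all genes, 71.4%, 79.8% and 74.1% were called in either direction. The summed level of the 6 genes listed for basal epithelial cells lay between 329102 and 691810 at d7 and between 189053 and 192878 at d10. It lay between 483546 and 500519 at d15 and between 254958 and 258701 at d20. *KRT17*, a keratin of basal epithelium whose reads can be shared with *KRT14*, was on average 136342 at d7, 13305 at d10 and 186677 at d15. Of the 4 endothelial markers, 2 were tested, with 0, 1 and 0 higher and 1, 0 and 1 lower at these steps. The calls were those of *KDR*, a receptor for vascular endothelial growth factor, at 157 (d7), 2.94 (d10), 263 (d15) and 13.5 (d20). *PECAM1*, an adhesion molecule of endothelium, was 10.8, 14.7, 9.06 and 12.2 on the same days. Its means went the other way at each step, but *PECAM1* was not called at any of them. *CDH5* had at most 1 read in any library and *VWF* at most 13. The summed level of that list was between 67.0 and 245 (d7), between 22.9 and 23.5 (d10), between 268 and 290 (d15) and between 25.4 and 40.2 (d20). The part of these markers in the course of *LOX* was not tested.

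*LOXL2*, a lysyl oxidase-like enzyme that also acts on collagen IV, rose early and then stayed near one level. It had 1320, 1310 and 1316 normalized reads at d0, and 2663, 2619 and 2630 at d1. On the later days its libraries lay between 2434, at d15, and 3245, at d20. All 18 treated libraries were above all 3 untreated ones. The log2 change from d0 was between 0.97 at d15 and 1.24 at d20 with a standard error of 0.05 (limma, adjusted p between 3.96e-15 and 2.18e-13). In the order of levels, neighbours among d20, d4 and d7 overlapped, as did those among d1, d10 and d15.

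*LOXL1*, which is known for its part in elastic fibre assembly, was low and rose late. It had 33.8, 45.8 and 49.5 normalized reads at d0, between 46.9 and 79.9 from d1 to d7, and 111, 107 and 96.8 at d10. At d15 it had 110, 103 and 111, and at d20 it had 199, 183 and 175. The libraries of d20 were above all others, those of d15 and d10 overlapped, and those of d7 overlapped d0, d1 and d4. The log2 change from d0 was 0.45 ± 0.14 (SE) at d7 and 2.10 ± 0.14 at d20, which is 4.32-fold (limma, adjusted p = 0.00885 and 2.84e-11). The call at d7 was lost without library 1 of d0, where the change was 0.28, and at equal library totals and under quantile normalization, where it was 0.26. It was also lost with only these 2 timepoints in the fit. Of the steps between neighbouring timepoints, those from d7 to d10 (0.84) and from d15 to d20 (0.78) passed the test.

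*LOXL3*, another lysyl oxidase-like enzyme, moved at d7 to d20 in the directions opposite to those of *LOX*. Its libraries had 42.7, 46.7 and 58.4 normalized reads at d0, 77.4, 79.0 and 89.3 at d1, and 36.8, 66.2 and 54.8 at d4. They had 33.8, 35.5 and 45.6 at d7, and 91.6, 102 and 126 at d10. They had 23.5, 34.4 and 40.4 at d15, and 90.1, 73.7 and 91.1 at d20. The 3 libraries of d10 were thus above all others, and those of d15 were below every untreated library. The log2 change between neighbouring timepoints was 1.45 ± 0.21 (SE) from d7 to d10, -1.69 ± 0.21 from d10 to d15 and 1.38 ± 0.21 from d15 to d20 (limma, adjusted p = 2.68e-06, 2.06e-07 and 4.8e-06). Against d0, *LOXL3* was called higher at d1 (0.73), d10 (1.10) and d20 (0.78) and lower at d15 (-0.60, limma, adjusted p = 0.0138). The call at d15 was lost without library 3 of d0 (-0.47) and without library 1 of d15 (-0.38). At d7 the change was -0.36 (limma, adjusted p = 0.139), and it passed the test at equal library totals (-0.54), under quantile normalization (-0.55) and without library 3 of d7 (-0.48).

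These *LOXL3* values rest on between 23 and 129 reads a library, and 625 exon bases of *LOXL3* overlap *HTRA2* on the opposite strand in GENCODE 29. Whether the counting used strand is not given in the sources used here, so reads of both genes cannot be told apart with certainty in that stretch. *HTRA2*, a mitochondrial protease, had means of 509 (d7), 588 (d10), 537 (d15) and 570 (d20), in the direction of *LOXL3* at each of these 3 steps. The part of shared reads in the *LOXL3* values was not tested. *LOXL4*, the remaining family member, had between 0 and 2 reads in each of the 21 libraries, at or under the floor of 3 reads, so no change of it was detectable at this depth.

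**Figure D2:**
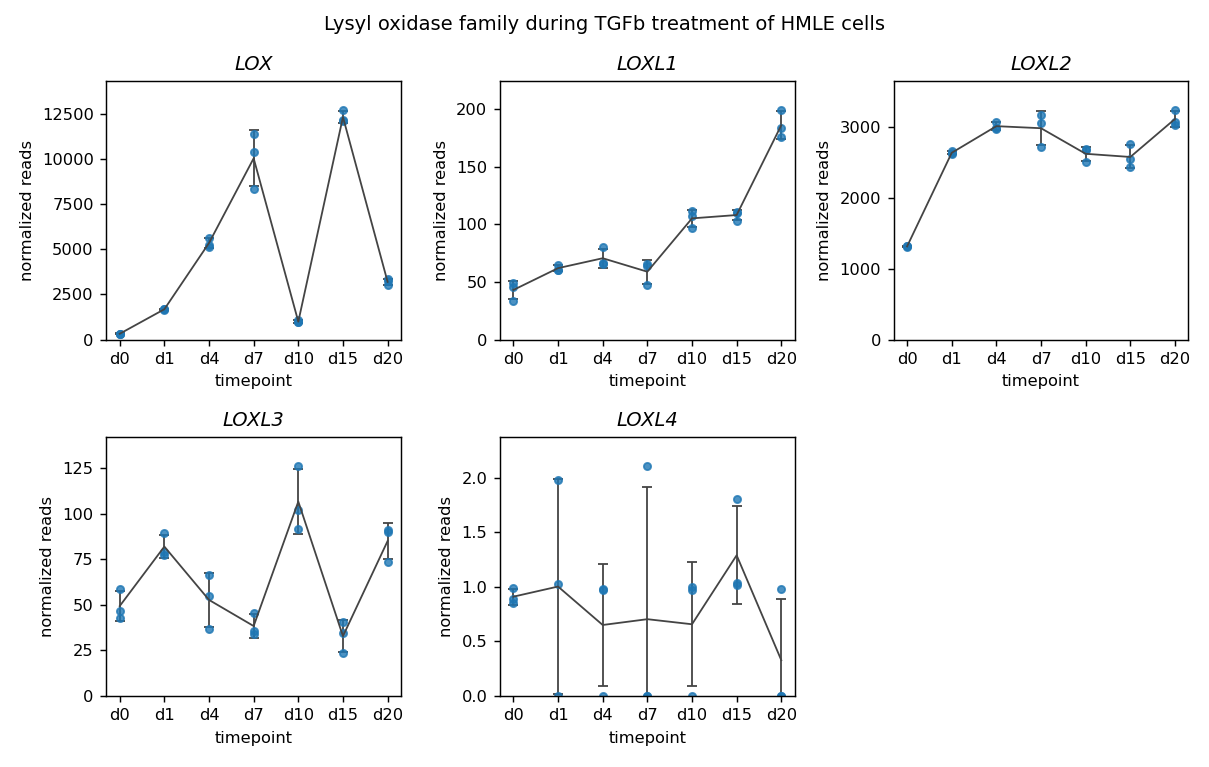
Normalized reads (y axis, linear from 0, scaled per gene) of the 5 lysyl oxidases at each timepoint (x axis, evenly spaced). Points are the 3 libraries, the line joins the means and bars are 1 SD; *LOX* peaked at d7 and d15 with a low at d10, *LOXL3* was high at d10 and d20, and *LOXL4* stayed at or under 2.11.

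The make-up of the family changed with these courses. To compare levels between genes, values were divided by the length of the longest coding transcript, from 2351 bases for *LOXL1* to 5102 for *LOX*, and given as shares of the summed level of the 5 genes per kb. *LOXL2* was 79.5% ± 0.56 (SD, n = 3) of this sum at d0 and *LOX* 13.5% ± 0.75. The share of *LOX* then grew to 29.3% (d1), 54.0% (d4) and 68.9% ± 4.6 (d7), dropped to 19.3% ± 0.94 (d10), and was 75.6% ± 0.65 on d15 and 39.0% ± 0.57 on d20. Per kb, *LOXL2* was therefore the leading lysyl oxidase transcript at d0, d1, d10 and d20, and *LOX* at d4, d7 and d15. The share of *LOXL2* was lowest at d15, 22.7% ± 0.68, although its own level there was 1.96 times that of d0. *LOXL1* was between 0.885% and 4.92% and *LOXL3* between 0.294% and 3.03% on average. The summed level per kb was 466 ± 2.0 at d0, 3198 ± 111 at d15 and 1608 ± 70 at d20. Without division by length, the share of *LOX* was 18.6% at d0 and 81.9% at d15, and *LOX* rather than *LOXL2* led at d20, with 3197 against 3115 normalized reads on average and overlapping libraries.

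**Figure D3:**
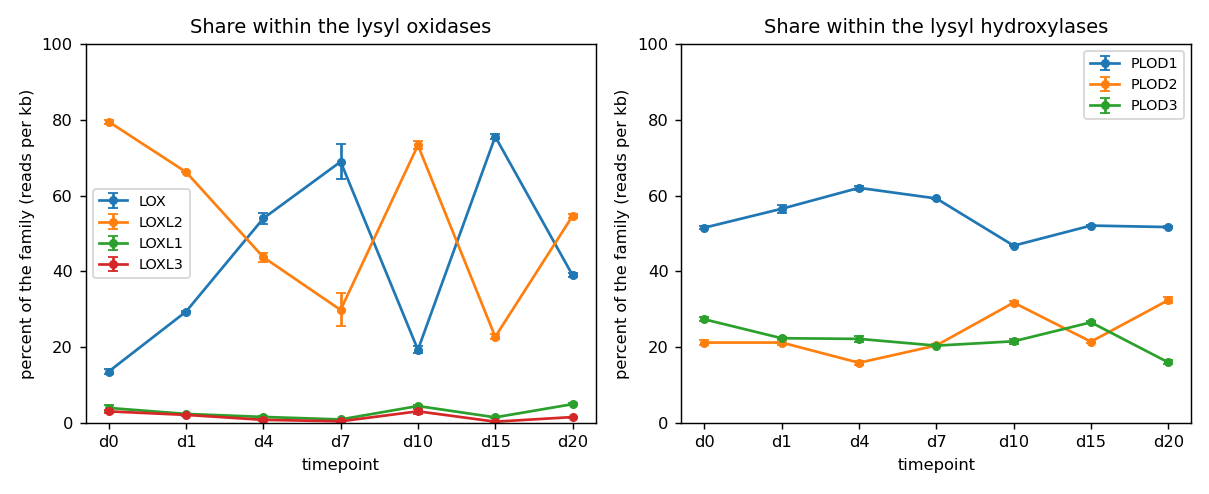
Share of each gene in the summed level per kb of its family (y axis, percent) at each timepoint (x axis, evenly spaced), as means of 3 libraries with SD; *LOXL4* is left out of the drawing, with at most 0.0534% on average. *LOX* and *LOXL2* exchanged the lead per kb, and the share of *PLOD2* was 31.7% at d10 and 32.4% at d20.

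The lysyl hydroxylases rose together at d1 and then took separate courses. *PLOD1*, which hydroxylates lysine in the helical part of collagen, had 3422, 3526 and 3453 normalized reads at d0, 6526, 6161 and 6230 at d1, and 7613, 7449 and 7436 at d4. At d15 it had 5876, 5591 and 5652, and at d20 it had 8109, 7957 and 7962, its highest values. Each of the 18 treated libraries was above all 3 untreated ones. The log2 change from d0 was between 0.72 at d15 and 1.21 at d20, each with a standard error of 0.03 (limma, adjusted p between 3.44e-18 and 1.8e-14). Libraries of d10 and d1 overlapped, and no other neighbours in the order of levels did.

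*PLOD2*, which hydroxylates lysine in the telopeptides and so favours the cross-links of stiff, fibrotic tissue, was highest at d10 and d20. It had 1851, 1834 and 1743 normalized reads at d0, 2939, 3084 and 2975 at d1, and 2512, 2318 and 2463 at d4. At d7 it had 3085, 3071 and 3217, at d10 it had 5454, 5647 and 5425, at d15 it had 3069, 2974 and 2895, and at d20 it had 6285, 6300 and 6526. The libraries of d1 overlapped those of d7 and those of d15, while d7 and d15 did not overlap. Those of d10 and d20 lay apart above these days, and those of d4 lay below them. The log2 change from d0 was 0.43 ± 0.04 (SE) at d4, 1.61 ± 0.04 at d10, which is 3.04-fold, and 1.82 ± 0.04 at d20, which is 3.52-fold (limma, adjusted p = 1.84e-09, 3.3e-19 and 3.79e-20). From d7 to d10 *PLOD2* rose by 0.82, from d10 to d15 it fell by 0.89, and from d15 to d20 it rose by 1.10 (limma, adjusted p between 5.13e-16 and 5.23e-13). At each of these 3 steps *LOX* moved the other way.

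*PLOD3*, which also carries glycosyltransferase activity toward hydroxylysine, rose by less than 2-fold on every day. Its values were 1775, 1908 and 1797 at d0 and between 2326 and 3003 in the treated libraries, all above d0. The log2 change was between 0.42 at d7 and 0.68 at d10 with a standard error of 0.04 (limma, adjusted p between 1.83e-12 and 7.25e-09). Libraries of d10 and d15 overlapped, as did those of d1, d20 and d7. Its smaller steps from d1 to d4 (0.10) and from d4 to d7 (-0.12) lost their calls when single libraries were left out.

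Within the lysyl hydroxylases, per kb, *PLOD1* held 51.5% ± 0.47 (SD, n = 3) in untreated cells, 62.0% ± 0.57 on d4 and 46.8% ± 0.16 on d10. The share of *PLOD2* went from 21.2% ± 0.62 in untreated cells to 15.8% ± 0.52 (d4), 31.7% ± 0.46 (d10), 21.4% ± 0.34 (d15) and 32.4% ± 0.77 (d20). The share of *PLOD3* fell from 27.3% ± 0.54 at d0 to 15.95% ± 0.53 at d20, although its own level rose. *PLOD1* thus stayed the leading lysyl hydroxylase transcript per kb. *PLOD2* ranked above *PLOD3* at d10 and d20, and at d7 both had nearly the same share, 20.4% ± 0.40 and 20.4% ± 0.45. Without division by length, *PLOD2* was the higher of both also at d1 (2999 against 2473 normalized reads on average), d7 (3124 against 2441) and d15 (2980 against 2887).

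The prolyl 4-hydroxylase alpha subunits carry the catalytic site of an enzyme whose beta subunit is *P4HB*. *P4HA2* had 1943, 1855 and 1882 normalized reads at d0, 3785, 3808 and 3703 at d1, and 5202, 5053 and 5072 at d4. At d7 it had 7439.9, 7039 and 4829, at d10 it had 3260.2, 3395 and 3194, at d15 it had 8199.5, 7956 and 7996, and at d20 it had 4037, 3853 and 3769. Like *LOX*, *P4HA2* was lowest among the treated days at d10 and highest at d15. The spread at d7 came from library 3, which lay below d4. The log2 change from d0 was 0.99 (d1), 1.43 (d4), 1.74 (d7), 0.79 (d10), 2.09 (d15, which is 4.25-fold) and 1.04 (d20), each with a standard error of 0.09 (limma, adjusted p between 1.1e-14 and 1.47e-07).

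Between neighbouring timepoints, *P4HA2* fell by 0.95 from d7 to d10, rose by 1.29 to d15 and fell by 1.05 to d20 (limma, adjusted p = 1.12e-08, 3.37e-11 and 1.6e-09). Without library 3 of d7, the change at d7 was 1.93 from d0 and that from d7 to d10 was -1.14. The rise from d4 to d7 was 0.31 (limma, adjusted p = 0.00849), 0.50 without library 3 of d7, and it was not called without library 1 (0.19) or library 2 of d7 (0.23). In GENCODE 29, 548 exon bases of *P4HA2* overlap *P4HA2-AS1* on the opposite strand, and 232 of *LOXL1* overlap *LOXL1-AS1*.

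*P4HA3* rose at d1 and stayed high. It had 16.9, 16.96 and 23.8 normalized reads at d0, 204, 220.5 and 193 at d1, and 351, 367 and 365 at d4. At d7 it had 367, 335 and 309, at d10 it had 199, 215 and 205, at d15 it had 306, 328 and 331, and at d20 it had 347, 348 and 339. Every treated library was above every untreated one, and the 6 days formed one upper group (d4, d20, d7 and d15) and one lower group (d10 and d1) that did not overlap. The log2 change from d0 was between 3.37 at d1, which is 10.7-fold, and 4.18 at d4, which is 18.8-fold, with a standard error of 0.10 (limma, adjusted p between 4.99e-19 and 2.71e-17). *P4HA3* fell by 0.70 from d7 to d10 and rose by 0.64 to d15 (limma, adjusted p = 2.65e-06 and 6.39e-06), the directions of *LOX* and *P4HA2* at smaller size. Per kb, *P4HA3* was 8.45 ± 1.7 (SD, n = 3) at d0 and 152 ± 2.2 at d20, against 565 ± 13 and 1160 ± 41 for *P4HA2*, so that it was the lower of both alpha subunits there.

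**Figure D4:**
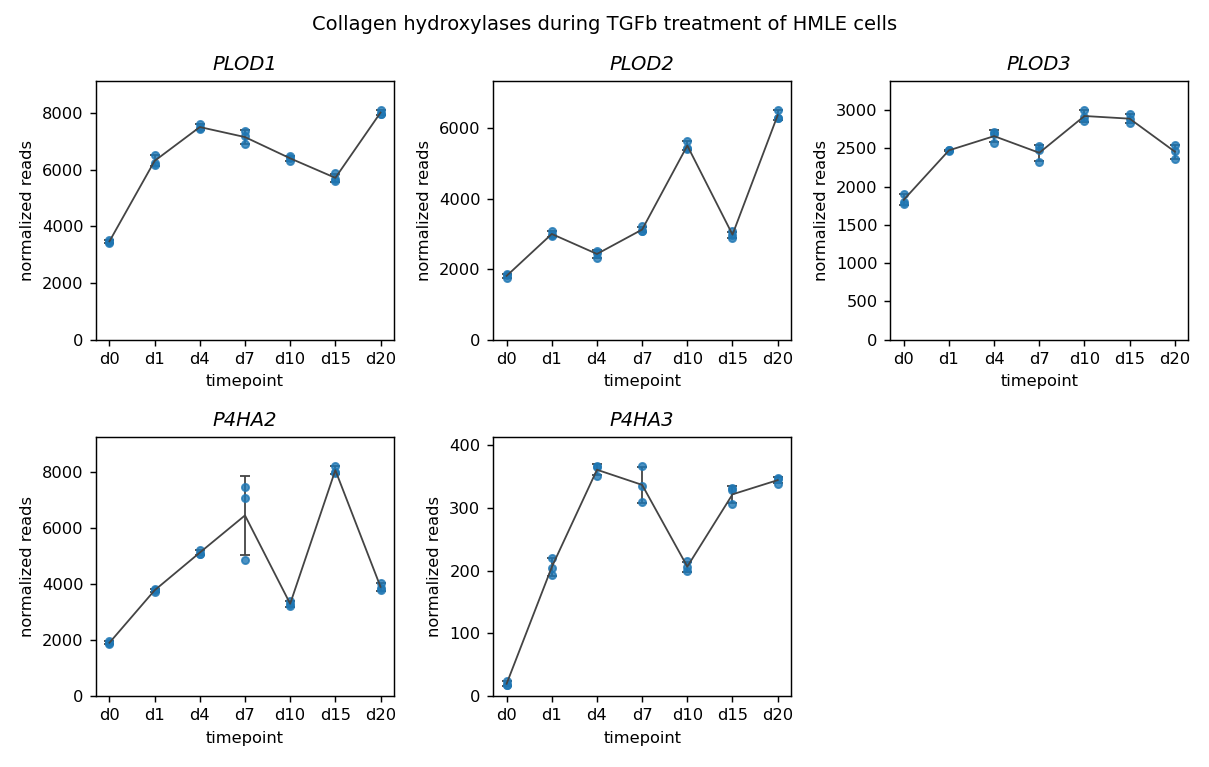
Normalized reads (y axis, linear from 0, scaled per gene) of the 3 lysyl hydroxylases and 2 prolyl 4-hydroxylase alpha subunits at each timepoint (x axis, evenly spaced). Points are the 3 libraries, the line joins the means and bars are 1 SD; *PLOD2* was high at d10 and d20, *P4HA2* at d7 and d15, and library 3 of d7 lay low for *P4HA2*.

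Between neighbouring timepoints most genes of the table changed, so the number of members that did is a description. It was 8 of 9 from d1 to d4, where 64.9% of all genes were called in either direction, and 4 from d4 to d7, where 51.1% were. It was 9 from d7 to d10 (71.4%), 6 from d10 to d15 (79.8%) and 8 from d15 to d20 (74.1%). The directions were split at the later steps: from d7 to d10, 4 rose (*LOXL1*, *LOXL3*, *PLOD2* and *PLOD3*) and 5 fell (*LOX*, *LOXL2*, *PLOD1*, *P4HA2* and *P4HA3*). From d10 to d15, *LOX*, *P4HA2* and *P4HA3* rose, *LOXL3*, *PLOD1* and *PLOD2* fell, and *LOXL1* (0.04), *LOXL2* (-0.03) and *PLOD3* (-0.02) did not pass the test. The fall of *PLOD1* was -0.16, and under quantile normalization it was 0.02 and not called, while *LOXL2* (0.12) and *PLOD3* (0.13) were then called higher.

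Across the 21 libraries, which share their timepoints and size factors, the log2 values of *LOX* and *P4HA2* had a Pearson correlation of 0.97, the values of *LOXL2* one of 0.98 with *PLOD1* and 0.97 with *P4HA3*, and those of *LOXL1* one of 0.84 with *PLOD2*. *LOX* had 0.14 with *PLOD2* and -0.51 with *LOXL3*. Among all genes with a mean of at least 50, the members left out, the 2 most like each member were taken by the same measure. For *LOX* these were *THSD1* (0.985), which went from 489 at d0 to 1276 at d7, 693 at d10 and 1330.0 at d15, and *MVP*, the major vault protein (0.985). For *P4HA2* they were *PLCH2* (0.988) and *TNFRSF10B* (0.985), a death receptor, which went from 2477 at d0 to 6381 at d15. For *PLOD2* they were *DOCK10* (0.967) and *SYDE1* (0.965), and for *LOXL3* they were *PPIF* (0.941) and *NUDCD1* (0.932). For *LOXL1* they were *PMP22* (0.955) and *CDH2* (0.954), the N-cadherin gene, which went from 10.99 at d0 to 782 at d20. For *LOXL2* they were *ARHGEF40* (0.989) and *MYO7B* (0.983), for *PLOD1* *GNAI2* (0.964) and *MYO7B* (0.960), for *PLOD3* *FBXW5* (0.948) and *MMP17* (0.948), and for *P4HA3* *TPST1* (0.989) and *ARHGEF40* (0.988).

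The promoters of *LOX* and *P4HA2*, which moved alike, and of *PLOD2*, which moved the other way after d7, are shown with short motifs of factors that act downstream of TGFβ or low oxygen. The sequences are those of RefSeq on GRCh38.p14, from 250 bases before to 50 after a transcription start, on the strand of the gene; a sequence was found for 8 of the 10 members. The motifs searched on both strands were CAGAC for SMAD proteins, ACGTG for the core of the hypoxia response element, TGANTCA for AP-1, CAGGTG for an E-box and TATAAA for a TATA box. Capitals mark any match, and matches can overlap. The regions are chr5:122078210-122078509 (minus strand), chr5:132227042-132227341 (minus strand) and chr3:146161135-146161434 (minus strand).
LOX: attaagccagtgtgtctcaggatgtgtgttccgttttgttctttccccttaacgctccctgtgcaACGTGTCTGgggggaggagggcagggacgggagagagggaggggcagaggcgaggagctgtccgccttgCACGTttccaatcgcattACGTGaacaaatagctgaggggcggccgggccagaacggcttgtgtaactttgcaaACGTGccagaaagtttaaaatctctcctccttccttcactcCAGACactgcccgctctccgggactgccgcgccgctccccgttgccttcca
P4HA2: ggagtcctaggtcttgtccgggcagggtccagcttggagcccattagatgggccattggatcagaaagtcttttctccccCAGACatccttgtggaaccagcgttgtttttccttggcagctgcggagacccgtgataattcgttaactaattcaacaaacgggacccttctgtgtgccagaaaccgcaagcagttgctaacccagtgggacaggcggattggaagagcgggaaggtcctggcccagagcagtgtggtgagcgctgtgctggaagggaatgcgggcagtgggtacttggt
PLOD2: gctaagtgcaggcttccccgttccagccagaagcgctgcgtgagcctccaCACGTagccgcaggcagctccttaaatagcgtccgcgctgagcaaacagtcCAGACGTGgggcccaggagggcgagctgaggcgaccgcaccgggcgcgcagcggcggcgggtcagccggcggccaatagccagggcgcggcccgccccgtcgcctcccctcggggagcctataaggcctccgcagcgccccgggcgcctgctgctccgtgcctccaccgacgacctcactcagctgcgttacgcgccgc

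The *LOX* window, at one of its 3 annotated starts, held 4 matches to ACGTG, which start 185, 116, 98 and 42 bases before the transcription start, and 2 to CAGAC, at 181 and 1 bases before it. The *PLOD2* window held 2 matches to ACGTG, at 200 and 146 bases before the start, and 1 to CAGAC at 149, which overlaps the nearer ACGTG. The *P4HA2* window held 1 match to CAGAC, at 170 bases before the start, and 0 to ACGTG. Of the other windows, *LOXL1* held 1 CAGAC and *LOXL4* 1 CAGGTG, while *LOXL3*, *PLOD1* and *PLOD3* held 0 of these motifs, and 0 of the 8 windows held TGANTCA or TATAAA. Of 35116 promoter windows of this length, 45.3% held CAGAC, 21.4% ACGTG, 20.6% CAGGTG, 11.5% TATAAA and 7.71% TGANTCA. The 3 windows shown each held CAGAC, and those of *LOX* and *PLOD2* held ACGTG. These 3 were picked from the 8 by the courses of their genes, and the part of the motifs in these courses was not tested.

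The other genes of collagen modification are given as counts and medians. Of 15 partner enzymes and chaperones, 14 were tested. Day by day from d1 to d20, 9, 12, 9, 10, 11 and 13 were higher and 2, 0, 1, 2, 1 and 1 lower. Between 31.3% and 39.2% of all genes were called higher on these days and between 28.5% and 37.3% lower. The median log2 change of the 14 was 0.38 on d20, against 1.24 for the 9 members and 0.00 for all genes. At d20 those called with at least a 2-fold change were the prolyl 3-hydroxylases *P3H3*, which rose from 435 ± 14 (SD, n = 3) to 1355 ± 57 normalized reads, and *P3H1*, which rose from 646 ± 11 to 1467 ± 20. *P4HA1*, another alpha subunit, and *P4HB*, the beta subunit, were named after their values were seen. *P4HA1* went from 1388 ± 55 at d0 to 2234 ± 24 at d15, and *P4HB* from 13308 ± 304 to 23319 ± 487 (log2 changes 0.69 ± 0.04 and 0.81 ± 0.03, SE; limma, adjusted p = 1.04e-12 and 3e-15). The 1 gene that fell at d20 was *TMEM38B*, an ion channel of the endoplasmic reticulum, from 456 ± 27 to 314 ± 30.

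Of 8 procollagen proteinases and their enhancers, 7 were tested, and 3, 4, 4, 4, 5 and 4 were higher and 0, 1, 1, 0, 0 and 0 lower over the same days. The shares over all genes were between 31.3% and 39.2% higher and between 28.5% and 37.3% lower. At d20 *ADAMTS14*, a procollagen N-proteinase, had 21.2, 21.1 and 30.4 normalized reads against 6.23, 4.24 and 6.93 at d0. *TLL1*, a tolloid-like C-proteinase, rose from 407 ± 11 to 977 ± 41. Named after its values were seen, *BMP1*, the C-proteinase that also activates the *LOX* proenzyme, went from 1331 ± 38 at d0 to 3724 ± 59 at d15, a log2 change of 1.48 ± 0.04 (SE; limma, adjusted p = 2.75e-18), and to 2615 ± 92 at d20.

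The substrates and scaffolds were higher on most days, by larger amounts. Of 15 collagens, elastic fibre genes and scaffold proteins, 13 were tested, and 10, 13, 13, 11, 13 and 12 were higher over the 6 days, with 0 lower on any day. Again, between 31.3% and 39.2% of all genes were higher and between 28.5% and 37.3% lower. At d20 all 12 that were called had risen at least 2-fold, where 7.51% of all genes rose by that much. The median log2 change of the 13 was 4.40, or 4.38 with genes at the floor in d0 set to their bound. *COL1A1*, the main chain of type I collagen, had 462 ± 16 (SD, n = 3) normalized reads in untreated cells and 28233 ± 1193 on d20, and *FN1*, fibronectin, had 4243 ± 182 and 539309 ± 7073. *COL1A2*, the partner chain of *COL1A1*, had 2.67, 2.54 and 3.96 at d0 and 748, 699.9 and 625 at d20. *FBLN5*, an elastic fibre protein that binds *LOXL1*, rose from 5.44 ± 1.5 to 1106 ± 51. *POSTN*, periostin, and *COL5A1* had 0 reads in each untreated library, and at d20 they were at least 249.7-fold and at least 20.9-fold over a level of 3 reads a library. *ELN*, elastin itself, had at most 2 reads in any of the 21 libraries.

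Genes that supply cofactors or report on oxygen did not share one direction, and neither did all genes. Of all genes, between 31.3% and 39.2% were called higher and between 28.5% and 37.3% lower on a treated day, so these counts are a description. Of 8 genes of copper, iron and ascorbate transport, 7 were tested, with 1, 2, 1, 1, 1 and 2 higher and 3, 3, 4, 4, 5 and 4 lower over the 6 days, and 0 of them had at least a 2-fold change at d20. *ATP7A*, the pump that loads lysyl oxidases with copper and was named after its values were seen, was 411 ± 16 at d0 and 315 ± 8.2 at d20 (log2 change -0.38 ± 0.09, SE; limma, adjusted p = 0.00123). Of 5 oxygen-sensing hydroxylases, 4 were tested, with 1, 0, 2, 1, 1 and 0 higher and 2, 3, 1, 2, 2 and 2 lower, and *P4HTM* did not keep one direction, with 72.9 ± 12 at d0, 129 ± 18 at d15, where it was called higher, and 34.6 ± 2.8 at d20, where it was called lower. Of 12 hypoxia-inducible genes, 7, 6, 5, 7, 5 and 6 were higher and 1, 5, 5, 1, 5 and 3 lower. *CA9*, a carbonic anhydrase induced by low oxygen, fell from 1781 ± 37 at d0 to 137 ± 10 at d20. At d15, when *LOX* was highest, the median log2 change of the 12 was 0.08. Named after their values were seen, the glycolytic genes *PGK1* and *LDHA* were at 4498 ± 85 and 8587 ± 175 at d15 against 11623 ± 408 and 21831 ± 674 at d0, although both were called higher than d0 at d1 and d10, while *NDRG1*, also of that list, was at 33259 ± 785 against 11881 ± 709.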

How the data were processed

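RNA of 21 libraries was sequenced. The file deposited by the authors holds a normalized read signal with 2 decimals for each of 23201 gene symbols in each library. Per the labels, the processing notes name STAR 2.7, Salmon 1.4 and hg19; the roles of these tools and the strand setting are not given in the sources used here. Every value divided by the library's smallest step gave a whole number of reads within 0.1, for 100% of values, so each value is a read count divided by one factor per library. The totals were 18847917 to 22667754 reads, and counting error alone limits values near the floor of 3 reads.

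Genes with a mean of at least 10 (13343) entered limma 3.58.1 (R 4.3.3) as log2(value + 1), in one fit with a mean per timepoint, a trended prior and Benjamini-Hochberg adjustment per contrast, at 0.05. Fold changes on that scale understate those of low genes. Columns were assigned to timepoints by their header names, which carry no replicate numbers, and the library numbers 1 to 3 only follow column order. Alternatives were a pseudocount of 10, no filter (19546 genes), equal library totals, quantile normalization, only the 2 timepoints compared, edgeR 4.0.16 and DESeq2 1.42.0 on the recovered reads, and each library left out. Leaving out library 3 of d7 throughout and shares without division by length were added after seeing the data. The steps were tested on simulated data. Lengths and exon overlaps came from GENCODE 29, promoters from RefSeq, and older symbols of 6 listed genes were matched through RefSeq synonyms. Python 3.11.15 and matplotlib 3.10.9 made the figures.

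All 10 members are given at every timepoint, and of the other lists the genes called at d20 with at least a 2-fold change, up to 6 a list by size. Genes outside this rule are marked, except *TMEM38B*, which fell by less than 2-fold, and *ELN*, which was not tested. Members, lists and comparisons were chosen with earlier results of these data known. The marker lists were those for basal epithelial, mesenchymal, fibroblast, endothelial and immune cells.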

Additional observations from a re-analysis of the deposited data

Results flagged for a closer look

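Several members reversed or moved by at least 2-fold between neighbouring timepoints, past the test of that step (limma). *LOX* changed on the log2 scale by 1.67 from d1 to d4, by -3.33 from d7 to d10, by 3.63 from d10 to d15 and by -1.95 from d15 to d20. *P4HA2* changed by 1.29 from d10 to d15 and by -1.05 from d15 to d20.

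*LOXL3* changed in the other direction at the same steps, by 1.45 from d7 to d10, by -1.69 from d10 to d15 and by 1.38 from d15 to d20. It was also the 1 member called lower than in untreated cells, at d15, with a log2 change of -0.60. *PLOD2* rose by 1.10 from d15 to d20, while *LOX* and *P4HA2* fell.

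The labels tie each timepoint to its own 3 libraries, so the day and anything else that differed between harvests cannot be told apart.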

How the results depend on the processing

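No paired analysis was possible because nothing in the column headers numbers the replicates. The alternatives gave 400 counts of members, of which 391 stayed within 1.5 times the reported count, and 1359 log2 changes, of which 1318 kept their direction and side of the threshold, 19 lost a call, 6 gained one and 16 changed sign. At d7, 1 member (*LOXL3*) rather than 0 was lower than at d0 at equal library totals and under quantile normalization, and between 0 and 1 with single libraries left out, where the 1 came without library 3 of d7. At d15 that count was between 0 and 1, with 0 without library 3 of d0 or library 1 of d15. At equal library totals, 3 members rather than 5 were at least 2-fold higher at d4 and 3 rather than 5 at d7. Between d4 and d7, 2 members rather than 4 changed with only these timepoints in the fit, and between 2 and 6 with single libraries left out, with 2 without library 2 of d7. The changes of sign were in small values, of which that of *PLOD1* was called in the report. From d10 to d15 they turned under quantile normalization for *LOXL1* (-0.22), *LOXL2* (0.12), *PLOD1* (0.02) and *PLOD3* (0.13), and at equal library totals for *LOXL2* (0.04) and *PLOD3* (0.05). With single libraries left out, that step was between -0.02 and 0.09 for *LOXL1*, between -0.07 and 0.01 for *LOXL2* and between -0.03 and 0.00 for *PLOD3*. From d4 to d7, *LOXL2* was at 0.00 under quantile normalization and edgeR and between -0.06 and 0.05 with single libraries left out. At d4 against d0, *LOXL3* was -0.13 at equal library totals, -0.02 under quantile normalization and between -0.12 and 0.30 with single libraries left out. The causes of these shifts were not tested. Of 56 shares within the families, 44 moved by more than 1 SD when values were not divided by length. Values under about 100 normalized reads (*LOXL1* at early days, *LOXL3*, and *P4HA3* at d0, on which its changes from d0 rest) are limited by depth, and *LOXL4* cannot be read.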
